A study of Mus musculus with 8 samples.

Results

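The nuclear-encoded subunits of respiratory chain complexes I to IV were described in cultured smooth muscle cells of the mouse aorta, which form the contractile layer of the vessel wall. Members were the genes whose symbol starts with Ndufa, Ndufb, Ndufc, Ndufs or Ndufv (without the Ndufaf assembly factors), the 4 succinate dehydrogenase genes Sdha to Sdhd, and genes starting with Uqcr, Cox4, Cox5, Cox6, Cox7 or Cox8. This rule used no measured value and found 66 of the 24704 genes tested, 37 in complex I, 4 in complex II, 7 in complex III and 18 in complex IV. Among them were 2 pseudogenes (Ndufs5-ps and Cox5b-ps), the complex I-related Ndufa4l2 and the supercomplex factor Cox7a2l. Ndufa4 was counted in complex I by its symbol, although its protein is now assigned to complex IV.

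RNA was measured on 8 single-colour Affymetrix arrays, and values are log2 RMA values. The 4 arrays titled AdPl, labelled control, and the 4 titled AdN5, labelled NFAT5 overexpression, both came from cultures that received adenovirus (24 h) followed by cholesterol (10 µg/ml, 72 h). Both groups thus carried virus and cholesterol, and neither an uninfected nor an unloaded group was compared. NFAT5 is a transcription factor known from cells under osmotic stress. By its labels, the comparison addresses how NFAT5 overexpression bears on gene expression in cells loaded with cholesterol. The labels do not say whether replicates were separate cultures, so the spread behind each p-value may be technical only.

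The respiratory chain moves electrons from NADH and succinate to oxygen in the inner mitochondrial membrane, and complexes I, III and IV pump protons as they do so. Complex I oxidises NADH, complex II oxidises succinate, both reduce ubiquinone, complex III passes the electrons to cytochrome c and complex IV reduces oxygen. Most subunits are encoded in the nucleus, and several complex IV subunits exist as a ubiquitous isoform and an isoform of heart and skeletal muscle or of testis. Many of their promoters carry sites for the nuclear respiratory factor NRF1 and for the ETS factor GABP.

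Nfat5, the check of the labels, was not higher in the AdN5 arrays. Its log2 values were 7.06, 7.22, 7.11 and 7.25 on AdPl arrays 1 to 4 and 7.06, 6.95, 6.98 and 6.88 on AdN5 arrays 1 to 4. The groups overlapped, and the log2 difference (AdN5 minus AdPl, here and throughout) was -0.19 ± 0.078 (SE; adjusted p = 0.360 in limma). The measured transcript goes against the label, so the groups are called by their titles. Whether the probes read the transgene was not tested.

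The promoters of 4 members show the regulatory sequence behind the genes described. Each is given as the 250 bases before the RefSeq transcription start, 5′ to 3′ on the strand of the gene, in build GRCm38.p6. All 4 genes lie on the minus strand. Capitals mark exact matches, on either strand, to the NRF1 motif (GCGCA, any base, then GCGC), the ETS motif CCGGAAG, the CCAAT box or TGGAAA, the core of the NFAT5 motif. TGGAAA read in reverse and the CCAAT box can share bases. Cox6a1 (chr5:115348959-115349208) and Sdha (chr13:74350241-74350490) are shown as examples of windows with NRF1 matches. Windows of Ndufa5, Ndufa8, Ndufa11, Ndufs6 and Sdhd also held NRF1 matches and are not shown. Ndufa4 (chr6:11907451-11907700) and Ndufs4 (chr13:114388095-114388344) are shown because they had the lowest differences in complex I.
Cox6a1: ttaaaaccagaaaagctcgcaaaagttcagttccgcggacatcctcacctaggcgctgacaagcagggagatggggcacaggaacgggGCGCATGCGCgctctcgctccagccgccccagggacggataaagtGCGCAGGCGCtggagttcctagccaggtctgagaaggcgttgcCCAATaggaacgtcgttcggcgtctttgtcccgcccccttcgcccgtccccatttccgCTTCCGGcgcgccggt
Sdha: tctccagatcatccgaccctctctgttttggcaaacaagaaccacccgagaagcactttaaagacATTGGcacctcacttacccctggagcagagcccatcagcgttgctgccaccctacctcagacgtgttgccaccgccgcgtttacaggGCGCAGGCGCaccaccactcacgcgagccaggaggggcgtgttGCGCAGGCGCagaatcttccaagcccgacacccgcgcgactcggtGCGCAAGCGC
Ndufa4: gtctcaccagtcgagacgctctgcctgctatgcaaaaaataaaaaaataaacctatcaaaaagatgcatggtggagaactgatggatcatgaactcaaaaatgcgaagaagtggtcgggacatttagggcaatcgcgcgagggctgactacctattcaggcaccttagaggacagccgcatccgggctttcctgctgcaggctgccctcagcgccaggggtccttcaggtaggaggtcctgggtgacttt
Ndufs4: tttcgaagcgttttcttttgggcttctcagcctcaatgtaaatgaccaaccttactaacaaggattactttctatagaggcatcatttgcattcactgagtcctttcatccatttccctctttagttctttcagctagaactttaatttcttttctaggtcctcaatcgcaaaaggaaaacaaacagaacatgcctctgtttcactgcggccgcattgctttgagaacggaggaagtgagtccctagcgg

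Cox6a1 held NRF1 matches starting 162 and 117 bases before the start, a CCAAT box at 74 and an ETS match at 16. Sdha held a CCAAT box at 185 and NRF1 matches at 98, 55 and 10. The windows of Ndufa4 and Ndufs4 held no match to these letters. Promoter windows were matched for 52 of the 66 members (54 windows), and Cox6a2, described below, was not among them. The NRF1 motif was in 14.8% of the members' windows and in 3.74% of all 32851 windows, and the ETS motif in 14.8% and 6.91%. The CCAAT box was in 37% and 33.8%, and TGGAAA in 14.8% and 18.6%. The members with TGGAAA in a window were Ndufa5, Ndufa11, Ndufb6, Ndufb10, Ndufs8, Uqcrh, Cox7a2 and Cox7a2l. A match is a description of the sequence and not a site.

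Across the chain 1 of the 66 members passed the test, Cox6a2, which was lower in the AdN5 arrays. No member was called higher, and 65 did not pass an adjusted p of 0.05 over all genes (limma). Of all genes 0.777% were called, 0.364% higher and 0.413% lower, so 1 call among 66 genes is not read as a result about the set. Members with an unadjusted p under 0.05 numbered 0 higher and 6 lower (9.09% of members), against 6.24% and 6.29% of all genes. Most members (58) lay above the median gene, and of these 8.62% were lower at that p, against 8.95% of all genes above the median. The median log2 difference was -0.034 over the members and 0.0042 over all genes. It was -0.010, -0.033, -0.019 and -0.035 without AdPl array 1, 2, 3 or 4. It was -0.011, -0.034, -0.043 and -0.030 without AdN5 array 1, 2, 3 or 4. Over the 58 members above the median gene it was -0.0090. Of the members 25 had a difference above 0 and 41 one below 0 (62.1% below, against 49.0% of all genes).

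**Figure D1:**
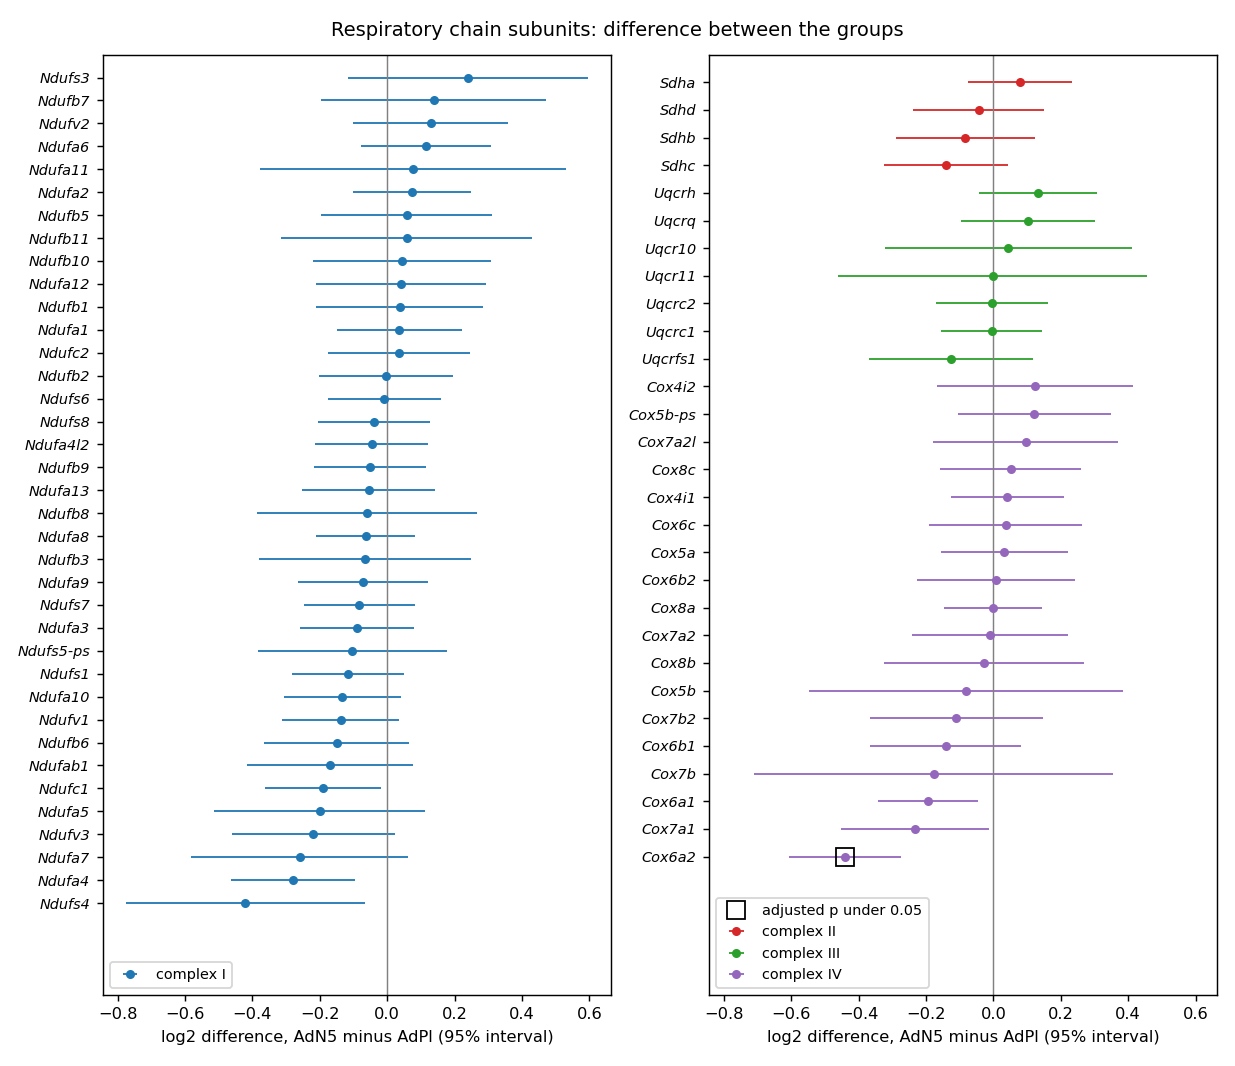
Log2 difference between the AdN5 and AdPl arrays (horizontal axis, points) with its 95% interval from limma (lines) for the 66 members, complex I at the left and complexes II to IV at the right, ordered by difference within each complex. Cox6a2, boxed, is the 1 member past an adjusted p of 0.05, and the points run from -0.44 for Cox6a2 to 0.24 for Ndufs3.

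The differences were small and bounded. In 38 members the difference was under 0.1 in size, and in 8 (12.1%) it was over 0.2, against 21.8% of all genes. For 62 members (93.9%) the 95% interval lay wholly within a 1.5-fold change in either direction, as it did for 87.1% of all genes. The 4 whose interval reached beyond it were Ndufs3, Ndufs4, Cox7b and Cox6a2. The median standard error was 0.095 over the members and 0.11 over all genes. RMA includes quantile normalisation, which would hide a shift shared by most genes.

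**Figure D2:**
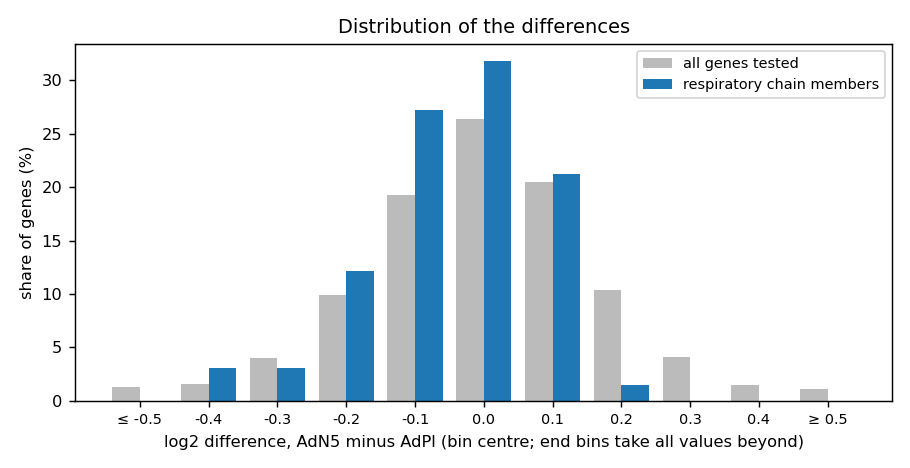
Share of genes (vertical axis, percent) by log2 difference in bins of 0.1 (horizontal axis) for all 24704 genes (grey) and the 66 members (blue). The members are gathered near 0, with 31.8% in the central bin against 26.4% of all genes, and none lie in the end bins.

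The groups of arrays did not overlap for 7 members, all lower in AdN5, and for 0 members in the other direction. Of all genes 4.56% were separated with AdN5 lower and 4.22% with AdN5 higher, against 10.6% of members with AdN5 lower. Among genes above the median gene the share with AdN5 lower was 7.64%, against 12.1% of the 58 members there. The 7 were Cox6a2 and Cox6a1 in complex IV and Ndufs4, Ndufa4, Ndufc1, Ndufs1 and Ndufa8 in complex I. Ndufc1 and Ndufa8 were singled out after their values were seen.

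Cox6a2 encodes the heart and skeletal muscle isoform of cytochrome c oxidase subunit 6A. Its log2 values were 4.50, 4.34, 4.29 and 4.34 on AdPl arrays 1 to 4 and 3.98, 3.90, 3.94 and 3.91 on AdN5 arrays 1 to 4. All AdN5 arrays lay below all AdPl arrays, and the gap between the groups was wider than the range of either. The mean was 3.93 ± 0.037 in AdN5 and 4.37 ± 0.091 in AdPl (SD, n = 4). The log2 difference was -0.44 ± 0.074 (SE; 95% interval -0.61 to -0.27; adjusted p = 0.0332 in limma), or 0.737 of the control level. The call did not hold in any of the 8 fits that left out 1 array (adjusted p 0.0654 to 0.104, difference -0.47 to -0.40) or when eBayes was run with a trend and robustly (adjusted p = 0.0643). Cox6a2 lay not far above the median gene (3.73), where RMA compresses differences.

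Cox6a1, the ubiquitous isoform of the same subunit, was among the brightest genes on the arrays. Its log2 values were 11.96, 12.00, 11.93 and 12.00 in AdPl and 11.74, 11.78, 11.75 and 11.83 in AdN5. The groups did not overlap, and the SD was 0.034 in AdPl and 0.038 in AdN5 (n = 4). The difference was -0.19 ± 0.066 (SE), which did not pass (adjusted p = 0.262 in limma; 8.08e-04 with trend and robust eBayes). Both isoforms of subunit 6A thus lay lower on every AdN5 array.

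The other isoform pairs of complex IV did not pass. Cox7a1, the heart and muscle isoform of subunit 7A, was at -0.23 ± 0.098 (SE; adjusted p = 0.372), with values of 2.73 to 3.05 in AdPl and 2.56 to 2.85 in AdN5, below the median gene. Its ubiquitous counterpart Cox7a2 was at -0.0093 and the related Cox7a2l, which joins complexes III and IV in supercomplexes, at 0.096. Cox4i1, the common isoform of subunit 4, was at 0.041, and Cox4i2, an isoform known from lung and from low oxygen, at 0.12. Cox4i2 was spread widely within AdN5, from 3.90 to 4.44. Cox6b1 was at -0.14 (-0.056 without AdPl array 3) and its testis isoform Cox6b2 at 0.0085. Cox8a, the ubiquitous subunit 8, had values of 9.45 to 9.52 in AdPl and 9.46 to 9.49 in AdN5. Its difference of -0.0024 had a 95% interval from -0.15 to 0.14. The muscle isoform Cox8b (-0.029) and the testis isoforms Cox8c (0.051) and Cox7b2 (-0.11) lay below the median gene on these arrays, as did Cox7b (-0.18) and Cox5b (-0.081), so little can be read from their differences. The row of the pseudogene Cox5b-ps was bright, with values of 8.91 to 9.27 in AdPl and 9.11 to 9.43 in AdN5 (difference 0.12). Whether its probes also read the transcript of Cox5b was not tested. The structural subunits Cox5a (0.032) and Cox6c (0.036) did not pass either. The median difference of the 18 complex IV members was -0.0059.

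**Figure D3:**
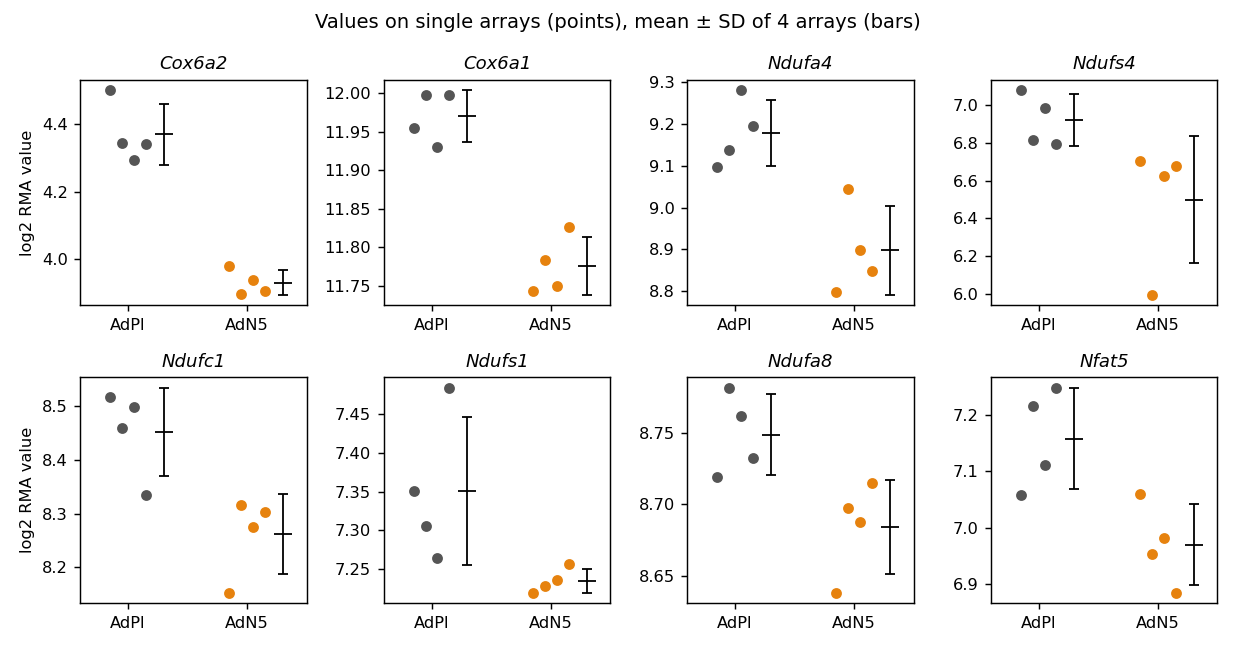
Log2 RMA values (vertical axis, a separate range for each gene) of the 7 members whose groups do not overlap and of Nfat5, with a point for each array in AdPl and AdN5 and bars for the mean ± SD of 4 arrays. Cox6a2 lies at 4.29 to 4.50 in AdPl and at 3.90 to 3.98 in AdN5, whereas the 2 groups of Nfat5 overlap.

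In complex I, the entry point of NADH, 0 of 37 members passed (unadjusted p under 0.05 in limma for 0 higher and 3 lower). The median difference was -0.055, with 13 members above 0 and 24 below. The groups did not overlap for 5 members, all lower in AdN5 (13.5%, against 4.56% of all genes and 7.64% of those above the median gene). Ndufs4, an accessory subunit whose loss in people causes a form of Leigh syndrome, had the lowest difference. Its values were 7.08, 6.82, 6.99 and 6.80 in AdPl and 6.70, 5.99, 6.63 and 6.68 in AdN5. AdN5 array 2 stood far below the other 3. The difference of -0.42 ± 0.16 (SE; adjusted p = 0.307) became -0.25 without that array (0.367).

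Ndufa4 had values of 9.10, 9.14, 9.28 and 9.20 in AdPl and 8.80, 9.04, 8.90 and 8.85 in AdN5. The groups were separate, at a difference of -0.28 ± 0.082 (SE; 95% interval -0.47 to -0.096), and the test was not passed (adjusted p = 0.195; 0.0106 with trend and robust eBayes). Its relative Ndufa4l2, a gene induced by low oxygen, was at -0.047, with 9.87 to 9.93 in AdPl and 9.73 to 9.94 in AdN5. Ndufc1, a small membrane subunit, was at -0.19 (8.33 to 8.52 in AdPl, 8.15 to 8.32 in AdN5; adjusted p = 0.349). Ndufa8 was separated by a difference of -0.064 only, with 8.72 to 8.78 in AdPl and 8.64 to 8.71 in AdN5 (adjusted p = 0.762). Ndufa7 (-0.26) was the third lowest member of complex I, and its groups overlapped. It was at -0.17 without AdPl array 3 and at -0.15 without AdN5 array 4.

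The core subunits of complex I carry the flavin and the iron-sulphur clusters, and 6 nuclear-encoded ones were measured. None passed, and their median difference was -0.061. Ndufv1, which binds the flavin and NADH, was at -0.14 ± 0.077 (SE), and its neighbour Ndufv2 at 0.13 ± 0.10. Ndufs1, the largest core subunit, was at -0.12, with values of 7.26 to 7.48 in AdPl and 7.22 to 7.26 in AdN5 that touched without overlapping. The spread of Ndufs1 was 0.015 (SD) in AdN5 and 0.096 in AdPl. Ndufs7 (-0.083) and Ndufs8 (-0.038), which hold the last clusters before ubiquinone, differed by less than 0.1. Ndufs3 had the highest difference of all members, 0.24 ± 0.16 (SE; 95% interval -0.12 to 0.60; adjusted p = 0.602). It was 0.40 without AdPl array 3 (adjusted p = 0.179) and 0.15 without AdPl array 2 (0.797). Its AdPl values of 4.81, 4.51, 5.28 and 4.56 enclosed the AdN5 values of 4.998, 5.07, 4.91 and 5.14.

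The accessory subunits were also read by symbol class, without a test. The 2 members starting with Ndufc had a median of -0.077. The 15 members starting with Ndufa had a median of -0.064, with Ndufa4 and the complex I-related Ndufa4l2 counted among them by symbol. The 10 starting with Ndufb, subunits of the membrane arm, had a median of 0.017. Among the latter Ndufb7 was highest (0.14 ± 0.15 SE) and Ndufb6 lowest (-0.15 ± 0.096), and all 10 intervals lay within a 1.5-fold change. Ndufv2 (0.13) and Ndufb7 followed Ndufs3 at the upper end of complex I. The members of complex I not named so far ran from -0.22 for Ndufv3, a small subunit of the NADH-oxidising arm, to 0.12 for Ndufa6, and none passed. Among them Ndufab1, the mitochondrial acyl carrier protein, was at -0.17, and the pseudogene Ndufs5-ps at -0.10.

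Complex II, succinate dehydrogenase, links the citric acid cycle to the chain, and its 4 genes did not pass. Sdha, the flavoprotein, had values of 9.56, 9.49, 9.48 and 9.42 in AdPl and 9.60, 9.58, 9.56 and 9.52 in AdN5, a difference of 0.080 ± 0.069 (SE). Sdhb, the iron-sulphur subunit, was at -0.083 ± 0.091, and the membrane anchors Sdhc and Sdhd were at -0.14 ± 0.082 and -0.044 ± 0.086. The groups overlapped for all 4 genes, and all 4 intervals lay within a 1.5-fold change. The median was -0.063.

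In complex III 0 of 7 members passed, and 0 were past an unadjusted p of 0.05 in either direction (limma). The core proteins were close to 0 in difference. Uqcrc1 had values of 8.30 to 8.41 in AdPl and 8.34 to 8.39 in AdN5 (difference -0.0054, 95% interval -0.16 to 0.15). Uqcrc2 had 8.13 to 8.18 and 8.08 to 8.26 (-0.0032, -0.17 to 0.16). Uqcrfs1, the Rieske iron-sulphur protein, was at -0.13 ± 0.11 (SE; -0.20 to -0.071 with 1 array left out). Uqcrh, the hinge protein that contacts cytochrome c1, was at 0.13 ± 0.078 and the small subunit Uqcrq at 0.10 ± 0.088. The small subunit Uqcr10 was at 0.043, with AdN5 array 1 at 4.87 and the other AdN5 arrays at 5.59 to 5.66. Without that array the difference was 0.23 (adjusted p = 0.306). The remaining small subunit, Uqcr11, was at -0.0017 ± 0.20 (SE). The median of complex III was -0.0017.

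AdPl array 3 stood apart for this set. It was the highest of the 8 arrays for 22 of the 66 members (33.3%), as against 11.6% of all genes, and for 15 of the 37 in complex I. The median deviation from each gene's mean over the 8 arrays was 0.13 in complex I, 0.089 in complex II and 0.075 in complex IV on this array, but -0.018 in complex III. AdN5 array 1 lay at the other end, lowest for 18 members (27.3%) as against 12.0% of all genes. Its median deviations were -0.063, -0.100, -0.083 and -0.039 in complexes I to IV. Without AdPl array 3 the median of complex IV turned from -0.0059 to 0.023 and that of complex III from -0.0017 to 0.0094. Those of complexes I (-0.053) and II (-0.044) stayed below 0. Such turns were not particular to this array. With 1 array left out, complex III ran from -0.011 (without AdN5 array 2) to 0.072 (without AdPl array 1). Complex IV ran from -0.047 (without AdPl array 2) to 0.023, and was at 0.020 without AdPl array 1. Without AdPl array 3 no member was called, as in every fit with 1 array left out, and 30 members were above 0 and 36 below. The difference of Cox6a2 was then -0.47.

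**Figure D4:**
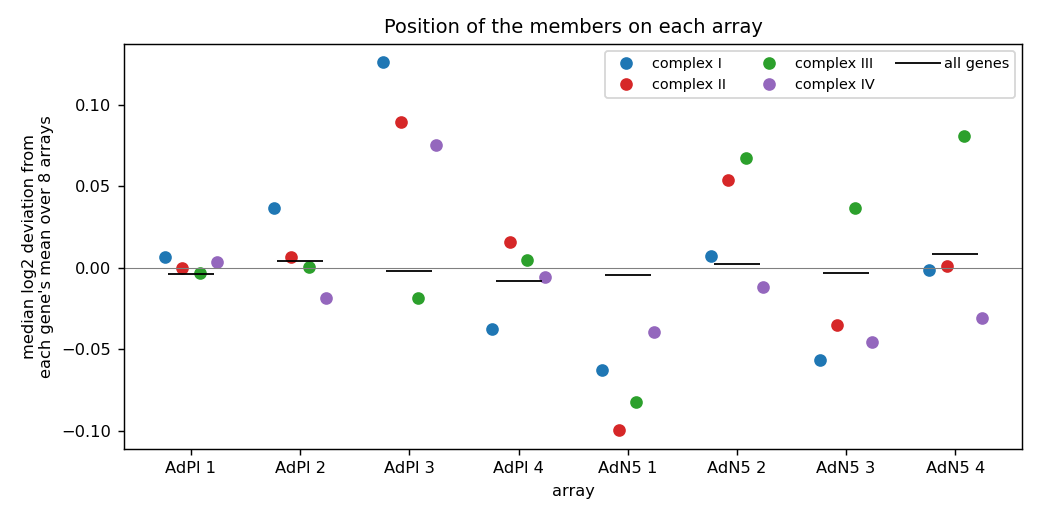
Median log2 deviation from each gene's mean over 8 arrays (vertical axis) on each array (horizontal axis), for the members of complexes I to IV (coloured points) and for all genes (black bars). AdPl 3 has the highest values of complexes I (0.13), II (0.089) and IV (0.075), and AdN5 1 the lowest value of complex II (-0.100).

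The other genes of oxidative metabolism were read from lists. None of the 14 ATP synthase genes passed, and their median was -0.031, with Atp5o at 0.29, Atp5c1 at 0.14, Atp5md at -0.20 and the dim Atp5h at -0.82. Of 43 assembly factors 0 passed (unadjusted p under 0.05 in limma for 4 that were higher and 4 that were lower), with a median of -0.065. Their ends were the copper-handling factor Cox19 (0.33) and the complex III chaperone Bcs1l (0.30), and the complex I factor Foxred1 (-0.34) and the complex III factor Lyrm7 (-0.31). The median of 12 citric acid cycle genes was -0.033, between Idh3a (0.079) and Mdh2 (0.049) at the upper end and citrate synthase Cs (-0.10) and Idh3b (-0.11) at the lower. Cytochrome c1 (Cyc1) was at -0.085 and cytochrome c (Cycs), below the median gene, at -0.19. Among 16 regulators of mitochondrial biogenesis 0 passed. The lowest was Tfb1m, a methyltransferase of mitochondrial ribosomal RNA, at -0.44 (adjusted p = 0.0894; groups not overlapping), followed by the nuclear receptor Esrra at -0.21. The dim Tfb2m (0.33) and Esrrg (0.19) were at the upper end. Of 13 symbols for subunits encoded in mitochondrial DNA 0 were among the genes tested, so those transcripts were not analysed here.

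The cells carried smooth muscle markers at all levels, from Acta2 (12.04 in AdPl, 11.74 in AdN5) and Cald1 (10.04 and 10.12) to Myh11 (5.32 and 5.32). Myocd, Des and Mylk lay below the median gene. Of these 12 markers 0 passed, and the groups did not overlap for 33.3%, against 8.78% of all genes. Acta2 (-0.30) and Mylk (-0.28) were separated with AdN5 lower, and Cnn1 (0.33) and Cald1 (0.078) with AdN5 higher. The lists of markers of other cell types and of the cell cycle gave the following. Of all genes 0.364% were called higher and 0.413% lower, and 49.0% had a difference below 0. All 12 macrophage markers measured had a difference above 0 (3 called higher), with list means of 5.33 to 5.51 in AdPl and 5.65 to 5.84 in AdN5. Adgre1, which encodes the macrophage antigen F4/80, had a mean of 7.72 in AdPl and 8.39 in AdN5. Cd68 was at 8.12 and 8.65 and Laptm5 at 7.68 and 8.21. In both groups Adgre1, Cd68 and Laptm5 lay above the smooth muscle markers Cnn1 (6.27 and 6.60) and Myh11, and below Acta2 and Cald1. Of 12 fibroblast or adventitial markers 10 were below 0 (1 called lower), with list means of 6.20 to 6.23 and 5.78 to 5.96. Of 11 endothelial markers 0 passed, with list means of 4.16 to 4.31 and 4.09 to 4.35. All 16 cell cycle genes were above 0 (8 called higher), from 5.24 to 5.37 in AdPl and from 5.67 to 6.05 in AdN5. The part of these in the lower Cox6a2 was not tested, and in bulk RNA fewer cells of a type and less RNA per cell cannot be told apart.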

How the data were processed

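The deposited values are log2 values, which per the submitters' processing notes the authors obtained by RMA (version not named). The table held 25428 rows keyed by Entrez gene identifiers. The platform annotation gave 1 symbol for 24705 rows and did not list 723, which stayed unnamed. The brightest row was kept for each symbol, giving 24704 genes, with no filter on dim genes.

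The groups, taken from the titles, were compared in R 4.3.3 by limma 3.58.1, using lmFit and eBayes on the 8 arrays with no covariates, two-sided. The threshold for a call was 0.05 after Benjamini-Hochberg adjustment over all genes. The number of arrays limits the precision. Members and lists were chosen with earlier results of these data known, so no list was tested. Genes were named if called, if among the 3 highest or lowest of a complex, or if core or isoform subunits. Of other lists the called genes and the 2 at either end were eligible, and smooth muscle markers served as the check of the cell type. Members named beyond this rule were picked with their values known. The fit was tested on simulated data. Promoter sequences are RefSeq's, in GRCm38.p6. Figures were drawn with matplotlib 3.10.9 in Python 3.11.15.

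Alternatives were a block for the replicate number, median centring or a second quantile normalisation, filters on dim genes, every row or the mean of rows, eBayes with a trend and robust, weights for arrays, an adjusted p under 0.01, structural subunits only and leaving out arrays.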

Additional observations from a re-analysis of the deposited data

Results flagged for a closer look

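In 72 groups of 4 arrays (36 members in each of the groups AdPl and AdN5), 4 had an array far from the other 3, by a gap that took up most of the range of the group (Dixon's test). Chance gives this in about 1 in 20 groups. Ndufs4 was at 5.99 on AdN5 array 2 and at 6.63 to 6.70 on the others. Uqcr10 was at 4.87 on AdN5 array 1 and at 5.59 to 5.66 on the others. Cox6b1 was at 7.62 on AdPl array 3 against 7.25 to 7.30, and Uqcrq was at 6.23 on AdPl array 2 against 6.46 to 6.48.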

How the results depend on the processing

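The count of 192 genes called became 14 with the replicate number as a block, 497 with only the brighter genes (above the median) tested, 781 with trend and robust eBayes, 42 at an adjusted p under 0.01, 30 without AdPl array 3 and AdN5 array 4 together (chosen after seeing the data), and 56 to 88 with 1 array left out. The count of 1 member called became 0 with the replicate block, at an adjusted p under 0.01, without AdPl array 3 and AdN5 array 4, and in all fits with 1 array left out (0 to 0), and 2 (Cox6a1 and Ndufa4) with trend and robust eBayes, where Cox6a2 was not called. It was 1 under the other alternatives, structural subunits only included. The cause of these changes was not tested. Fewer arrays entered the fits with arrays left out, and fewer genes entered the fit of the brighter genes. The labels do not say that the replicate numbers pair the arrays. Deviations from the group means correlated at 0.055, 0.051, -0.079 and -0.047 for numbers 1 to 4. AdPl arrays 1 and 2 correlated best with the AdN5 array of their own number, and AdPl arrays 3 and 4 did not. Correlations this weak cannot decide whether the arrays were paired. The adjusted p of Cox6a2 was 0.146 with the block. Over 18 alternatives its difference stayed between -0.47 and -0.40, with an adjusted p of 0.00755 to 0.146. With 1 array left out the medians ran from -0.070 to -0.037 in complex I, -0.11 to -0.023 in complex II, -0.011 to 0.072 in complex III and -0.047 to 0.023 in complex IV. The median over all members ran from -0.043 to -0.010. Dim members (8 below the median gene) are measured poorly.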
